A study of Mus musculus with 8 samples.

Results

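The genes described here carry peptides to the T cell receptor of CD4 T cells, and comprise 10 genes of the MHC class II presentation pathway in mouse bone marrow-derived dendritic cells (BMDCs). They were chosen by name as *H2-Aa*, *H2-Ab1*, *H2-Eb1*, *H2-DMa*, *H2-DMb1*, *H2-DMb2*, *H2-Oa*, *Cd74*, *Ciita* and *Ctss*, and all 10 were among the 23356 genes of the deposited table. The study used RNA-seq to ask which transcriptional changes that follow microtubule destabilization depend on GEF-H1, a guanine nucleotide exchange factor that is bound to microtubules and is encoded by *Arhgef2*. BMDCs of WT and GEF-H1-/- (Arhgef2-/-) mice on the C57BL/6 background (C57BL/6N in the study's methods) were left untreated or exposed to 100 nM ansamitocin-P3 (AP3), a maytansine-type drug that destabilizes microtubules, with a time of 5 h for all 4 groups. Each group held 2 libraries, and the table lists for each gene 1 FPKM value a group, a fragment count scaled to transcript length and library size, into which Cuffdiff combined both libraries.

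The mice were sex-matched and 8 to 16 weeks old. All cultures had been grown from bone marrow for 6 days in GM-CSF and IL-4, and loosely attached and floating cells were collected, with no sort for dendritic cells (DCs) described. The GEF-H1 deletion was present in every cell of the mutant animals and not in DCs alone. No value of a single library, no SD and no read depth stands in the table, so no difference below was tested against the spread between duplicates. The error of a value is the 95% interval that Cuffdiff gave with it, and the width of this interval for the 10 genes was 36.5% to 59.0% of the FPKM, with a median of 45.2%. *Arhgef2* was at 42.3 FPKM in untreated WT, 45.9 in AP3-treated WT, 4.59 in untreated GEF-H1-/- and 4.16 in AP3-treated GEF-H1-/- DCs, which is the order of the genotypes in the labels.

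In antigen-presenting cells, class II molecules assemble from an alpha and a beta chain in the endoplasmic reticulum, together with the invariant chain, the product of *Cd74*, which directs them to endosomes. There proteases such as cathepsin S (*Ctss*) trim the invariant chain to the fragment CLIP, H2-DM exchanges CLIP for antigenic peptide, and H2-DO, of which *H2-Oa* encodes the alpha chain, restrains H2-DM. CIITA, a coactivator that does not itself bind DNA, is recruited by RFX, CREB and NF-Y proteins to the X and Y boxes of class II promoters, and dendritic cells are known to shut down *Ciita* as they mature while their class II protein becomes long-lived at the surface.

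Of the 10 genes, 7 lie in the class II region of chromosome 17, between position 34092379, the start of *H2-Oa*, and 34316674, the end of *H2-Eb1*, in GRCm38. *Ciita* lies on chromosome 16 (10480014 to 10531064) and *Ctss* on chromosome 3 (95526786 to 95556405). RefSeq promoter windows of GRCm38.p6, each from 250 bases before to 50 after a gene start, were at hand for 7 of the 10 genes, which leaves out *H2-Ab1*, *Cd74* and *Ciita*. The windows are shown because CIITA acts through the boxes in them, and because genes with these boxes separated into those that were lower with AP3 and those that were not. The letters TGATTGG, the Y box bound by NF-Y, stood in the windows of 5 of the 7 genes and in 7.82% of all 32851 windows, and AGNAAC, a short core of the X box bound by RFX, in 48.1% of all windows. Both strands were searched, and the letters were picked after these promoters had been read. In the stretches below, all from before the start of transcription and written 5′ to 3′ on the strand of the gene, capitals mark the Y box near the right end, an AGNAAC match to its left and, in *H2-Aa*, TGACGTCA, the letters bound by CREB, which 1.79% of all windows hold.
H2-Eb1 (chr17:34305746-34305824, plus strand): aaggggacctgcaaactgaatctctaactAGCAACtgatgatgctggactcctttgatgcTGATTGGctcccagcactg
H2-Aa (chr17:34287855-34287933, minus strand): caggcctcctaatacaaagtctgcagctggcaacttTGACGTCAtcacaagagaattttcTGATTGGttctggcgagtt
H2-Oa (chr17:34092274-34092352, plus strand): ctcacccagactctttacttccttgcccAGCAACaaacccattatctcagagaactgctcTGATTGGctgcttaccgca
H2-DMb1 (chr17:34153068-34153146, plus strand): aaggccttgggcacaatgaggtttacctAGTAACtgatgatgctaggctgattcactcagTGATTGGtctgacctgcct
H2-DMb2 (chr17:34145097-34145175, plus strand): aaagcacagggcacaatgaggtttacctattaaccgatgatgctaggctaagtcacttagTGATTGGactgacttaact

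The Y box ended 54 bases before the start in *H2-Eb1*, 43 in *H2-Aa*, 38 in *H2-Oa*, 56 in *H2-DMb1* and 85 in *H2-DMb2*. An AGNAAC match stood 25 to 26 bases ahead of the Y box in *H2-Eb1*, *H2-Oa* and *H2-DMb1*, an arrangement (15 to 40 bases apart on 1 strand) that 0.256% of all windows share. The stretches of *H2-DMb1* and *H2-DMb2* were identical at 66 of 79 positions. Neither of the 2 windows of *H2-DMa* nor that of *Ctss* held TGATTGG. The *H2-DMa* windows belong to starts at 34122832 and 34125518, and the listed lower end of the gene, 34119693, was not covered. Only exact matches to these letters were searched, so a Y box in *H2-DMa* is not excluded. A match of letters describes the sequence and is not a measured binding site.

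Levels spanned more than 2 orders of magnitude. FPKM is corrected for length, so levels of different genes may be compared. *Cd74* led with 3676 FPKM in untreated WT DCs, rank 10 of the 11397 genes that had a Cuffdiff status of OK and at least 1 FPKM in at least 1 group, a filter that all 10 genes passed. *H2-Aa* (925 FPKM), *Ctss* (697), *H2-Ab1* (633) and *H2-Eb1* (356) followed, at ranks 98, 125, 134 and 227. Transcripts of the peptide editor were less abundant, with *H2-DMa* at 158, *H2-DMb1* at 94.9 and *H2-DMb2* at 53.3 FPKM. *H2-Oa* (27.6) and *Ciita* (23.4) came last, and the intervals of neighbours in this order overlapped for *H2-Aa* and *Ctss*, for *Ctss* and *H2-Ab1*, and for *H2-Oa* and *Ciita*. *H2-Ea-ps*, the inactive I-E alpha gene of C57BL/6 mice, was at 0.0314 FPKM, so no transcript for a partner of the *H2-Eb1* chain was detected above 0.0341 FPKM in any group.

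**Figure D1:**
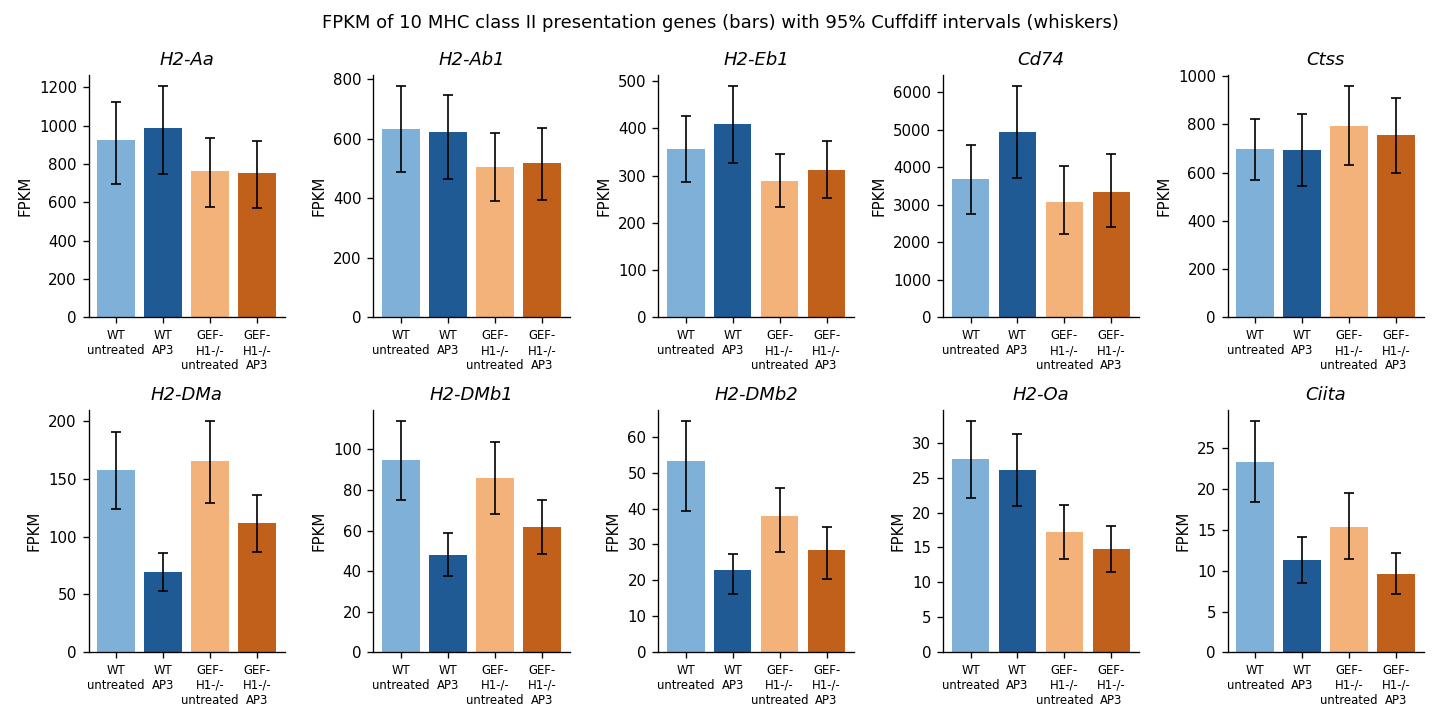
FPKM of the 10 genes (y axis, a scale of its own in each panel) in the 4 groups (x axis; light blue untreated WT, dark blue AP3-treated WT, light orange untreated GEF-H1-/-, dark orange AP3-treated GEF-H1-/-; AP3, ansamitocin-P3). Whiskers are the 95% Cuffdiff intervals. The bars of *H2-DMa*, *H2-DMb1*, *H2-DMb2* and *Ciita* are shortest in the treated groups, those of *H2-Oa* are lower in both GEF-H1-/- groups, and the whiskers of the chains overlap in all groups.

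To describe the response of WT DCs, AP3-treated cells were compared with untreated cells as the log2 ratio of FPKM + 1. A gene was called when this value was over 1 or under -1, and a second rule asked whether the Cuffdiff intervals of both groups lay apart. Grouped by these values, *H2-DMa*, *H2-DMb1*, *H2-DMb2* and *Ciita* stood at 0.430 to 0.508 of their untreated FPKM in AP3-treated WT DCs with intervals apart. The class II chains, *Cd74*, *Ctss* and *H2-Oa* kept overlapping intervals. By the first rule, 2 of the 10 genes (*H2-DMa* and *H2-DMb2*) were called lower and 0 higher, against 1.28% and 3.66% of all 11397 genes. By the second, 4 of 10 were lower and 0 higher, against 7.58% and 9.19% of all genes. *H2-DMa*, *H2-DMb2* and *Ciita* also stood on the study's own lists of regulated genes, drawn from these samples, so their direction here is no independent evidence. With the groups rescaled to an equal sum of FPKM, all 4 passed the fold threshold. This scaling also moved the median change of all genes from 0.00 to -0.24. It raised the number of all genes called lower from 146 to 423. Rescaled to the median ratio over genes, 2 of the 10 genes were called. In bulk samples fewer cells of a type and less RNA per cell cannot be told apart, and in WT DCs the summed level of 8 macrophage markers went from 266 to 199 FPKM and that of 7 B cell markers from 16.8 to 10.5 FPKM with AP3, whose part in the values was not tested.

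*H2-DMa* encodes the alpha chain of the peptide editor H2-DM. Its FPKM was 158 (95% interval 124 to 191) in untreated WT, 69.6 (53.0 to 85.5) in AP3-treated WT, 165 (129 to 200) in untreated GEF-H1-/- and 112 (86.8 to 136) in AP3-treated GEF-H1-/- DCs. Treated WT DCs were lowest, with an interval below that of each of the 3 other groups. The log2 change was -1.17 (95% interval -1.62 to -0.72, propagated from the Cuffdiff intervals) in WT cells and -0.56 (-0.996 to -0.12) in GEF-H1-/- DCs.

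*H2-DMb1* encodes a beta chain of H2-DM. Its FPKM was 94.9 (75.1 to 114) in untreated WT, 48.2 (37.5 to 58.8) in AP3-treated WT, 86.1 (68.1 to 104) in untreated GEF-H1-/- and 61.9 (48.6 to 75.0) in AP3-treated GEF-H1-/- DCs. The untreated groups overlapped each other, as did the treated groups, and only in WT did treatment separate the intervals. The log2 change was -0.96 (-1.39 to -0.54) in WT cells and -0.47 (-0.89 to -0.05) in GEF-H1-/- DCs.

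*H2-DMb2*, the neighbouring gene for a second H2-DM beta chain, was at 53.3 FPKM (39.4 to 64.3) in untreated WT, 22.9 (16.3 to 27.4) in AP3-treated WT, 37.9 (27.8 to 45.8) in untreated GEF-H1-/- and 28.4 (20.5 to 34.8) in AP3-treated GEF-H1-/- DCs. Treated WT DCs were again lowest, and untreated GEF-H1-/- DCs lay between both WT groups, apart from AP3-treated WT only. The log2 change was -1.18 (-1.65 to -0.71) in WT cells and -0.40 (-0.89 to 0.08) in GEF-H1-/- DCs. Both beta chain genes share sequence: 35% of the 35-base words of the *H2-DMb1* transcript, the length of a read, also occur in *H2-DMb2*, and 32% the other way, so the division of reads between them is uncertain. Summed, a comparison added after seeing the data, they gave 148 FPKM in untreated WT, 71.1 in AP3-treated WT, 124 in untreated GEF-H1-/- and 90.3 in AP3-treated GEF-H1-/- DCs, with a log2 change of -1.05 in WT cells and -0.45 in GEF-H1-/- DCs.

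*Ciita* was at 23.4 FPKM (18.4 to 28.4) in untreated WT, 11.3 (8.55 to 14.2) in AP3-treated WT, 15.4 (11.4 to 19.5) in untreated GEF-H1-/- and 9.56 (7.13 to 12.2) in AP3-treated GEF-H1-/- DCs. Unlike for the H2-DM genes, the lowest value was that of AP3-treated GEF-H1-/- DCs, whose interval overlapped those of AP3-treated WT and untreated GEF-H1-/- DCs. The log2 change was -0.98 (-1.43 to -0.54) in WT cells and -0.64 (-1.13 to -0.14) in GEF-H1-/- DCs. The table holds 1 value for the gene, so transcripts from the separate *Ciita* promoters used by DCs, B cells and interferon-treated cells are not told apart.

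The chains presented a different picture. *H2-Aa*, the I-A alpha chain, was at 925 FPKM (695 to 1123) in untreated WT, 987 (745 to 1204) in AP3-treated WT, 762 (578 to 932) in untreated GEF-H1-/- and 753 (571 to 920) in AP3-treated GEF-H1-/- DCs. *H2-Ab1*, the I-A beta chain, was at 633 (488 to 776), 623 (465 to 748), 506 (390 to 619) and 517 FPKM (395 to 635) in the same order of groups. Both genes of the I-A dimer thus had WT values above GEF-H1-/- values and nearly equal values with and without the drug, with all 4 intervals overlapping for each gene. *H2-Eb1*, the I-E beta chain, was at 356 (286 to 425), 408 (327 to 489), 289 (233 to 345) and 313 FPKM (252 to 372). The log2 change with AP3 lay between -0.02 and 0.20 for the chains in WT cells and between -0.02 and 0.11 in GEF-H1-/- DCs, and the propagated intervals of all of these included 0.

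*Cd74* was at 3676 FPKM (2756 to 4595) in untreated WT, 4935 (3719 to 6150) in AP3-treated WT, 3073 (2235 to 4020) in untreated GEF-H1-/- and 3331 (2396 to 4362) in AP3-treated GEF-H1-/- DCs. Its value was highest in AP3-treated WT DCs, with a log2 change of 0.42 (-0.08 to 0.93) in WT cells and 0.12 (-0.48 to 0.71) in GEF-H1-/- DCs, and the 4 intervals overlapped. *Ctss* was at 697 (570 to 824), 694 (546 to 841), 794 (632 to 957) and 755 FPKM (600 to 911) in untreated WT, AP3-treated WT, untreated GEF-H1-/- and AP3-treated GEF-H1-/- DCs. It was the only one of the 10 genes for which both GEF-H1-/- groups had higher values than both WT groups, within overlapping intervals.

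**Figure D2:**
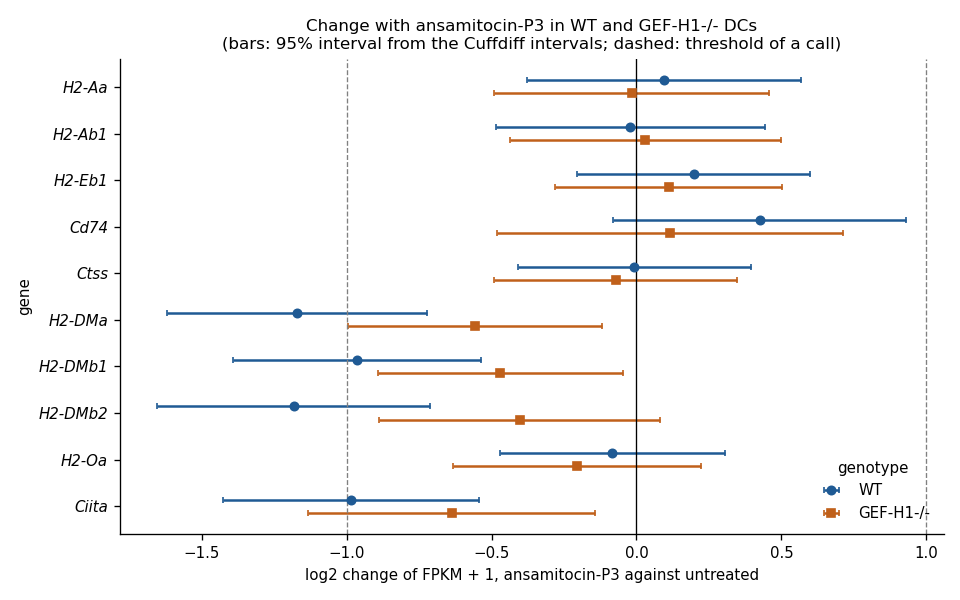
Log2 change of FPKM + 1 with ansamitocin-P3 (x axis) for each gene (y axis) in WT (blue circles) and GEF-H1-/- DCs (orange squares), with 95% intervals propagated from the Cuffdiff intervals and dashed lines at the thresholds of -1 and 1. The points of *H2-DMa*, *H2-DMb1*, *H2-DMb2* and *Ciita* lie between -1.18 and -0.96 in WT cells and between -0.64 and -0.40 in GEF-H1-/- DCs, and those of the other genes lie between -0.20 and 0.42 in both.

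The drug effect in GEF-H1-/- DCs was then described in the same way. By the fold rule 0 of the 10 genes were called lower, against 0.272% of all genes, and by the interval rule 0 were lower and 0 higher, against 0.956% and 2.75%. No test with replicates stands behind these counts. The 4 genes that were lower in WT, grouped by those values, all had changes below 0 here too, with a median log2 change of -0.51, against -1.08 in WT, and the propagated interval excluded 0 for *H2-DMa*, *H2-DMb1* and *Ciita*. Over all 11397 genes the median was 0.00 (WT) and -0.01 (GEF-H1-/-), and over the 10 genes -0.05 and -0.14.

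How far the genotypes differed in the drug effect was measured as the log2 change in GEF-H1-/- minus that in WT DCs. It was 0.78 (0.10 to 1.46) for *H2-DMb2*, 0.61 (-0.02 to 1.24) for *H2-DMa*, 0.49 (-0.11 to 1.09) for *H2-DMb1* and 0.35 (-0.32 to 1.01) for *Ciita*. Of these, the interval of *H2-DMb2* excluded 0. For the other 6 genes the difference lay between -0.31 (*Cd74*) and 0.05 (*H2-Ab1*), and every interval included 0. Of the 10 genes, 0 passed 1 in either direction, against 1.9% of all genes. The change was thus less negative in GEF-H1-/- than in WT DCs for each H2-DM gene, and whether its interval excluded 0 depended on the scaling and on the division of reads. With the groups rescaled to an equal sum of FPKM the difference was 1.01 (0.33 to 1.68) for *H2-DMb2*, 0.84 (0.22 to 1.47) for *H2-DMa* and 0.72 (0.12 to 1.32) for *H2-DMb1*, beside a median of 0.19 over all genes. For both beta chain genes summed, as deposited, it was 0.60 (0.13 to 1.06 if the errors of the genes are independent, -0.04 to 1.23 if they are fully shared).

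Ratios of genes within a group do not depend on how the groups are scaled to each other. *H2-DMa* stood at 17.1% (12.5% to 23.4%) of the FPKM of *H2-Aa* in untreated WT DCs and at 7.06% (5.08% to 9.81%) in AP3-treated WT DCs. In GEF-H1-/- DCs the same ratio was 21.7% (15.8% to 29.7%) without and 14.9% (10.8% to 20.4%) with the drug. The interval of AP3-treated WT DCs lay below those of the 3 other groups, and those of both GEF-H1-/- groups overlapped. The sum of both H2-DM beta chain genes stood at 23.4% (17.8% to 30.9%) of *H2-Ab1* in untreated WT, 11.4% (8.60% to 15.2%) in AP3-treated WT, 24.5% (18.6% to 32.3%) in untreated GEF-H1-/- and 17.5% (13.1% to 23.2%) in AP3-treated GEF-H1-/- DCs. Transcripts of the H2-DM alpha and beta chains kept their proportion within error, with a ratio of 1.07 (0.820 to 1.39) in untreated and 0.979 (0.734 to 1.31) in AP3-treated WT DCs.

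For *Ciita* per *H2-Ab1* the ratio was 3.70% (2.71% to 5.05%) in untreated WT, 1.82% (1.30% to 2.55%) in AP3-treated WT, 3.05% (2.15% to 4.31%) in untreated GEF-H1-/- and 1.85% (1.30% to 2.63%) in AP3-treated GEF-H1-/- DCs. The treated groups were nearly equal, and the interval was apart from untreated cells in WT only. *H2-DMa* per *H2-Oa*, a chain of the editor relative to a chain of its inhibitor, was 5.72 (4.28 to 7.63) in untreated WT, 2.68 (1.97 to 3.63) in AP3-treated WT, 9.59 (7.03 to 13.1) in untreated GEF-H1-/- and 7.56 (5.54 to 10.3) in AP3-treated GEF-H1-/- DCs. This ratio separated AP3-treated WT DCs from each of the 3 other groups. *H2-Oa* itself differed between genotypes (26.0 FPKM in AP3-treated WT, 14.8 in AP3-treated GEF-H1-/- DCs), which enters the ratio. *H2-Ob*, the other H2-DO chain, was at 2.78 to 3.40 FPKM, so *H2-Oa* alone does not measure the inhibitor. *H2-Eb1* per *H2-Ab1* stayed between 56.3% and 65.5%, and *Cd74* per *H2-Aa* between 3.98 and 5.00, with overlapping intervals in all groups.

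**Figure D3:**
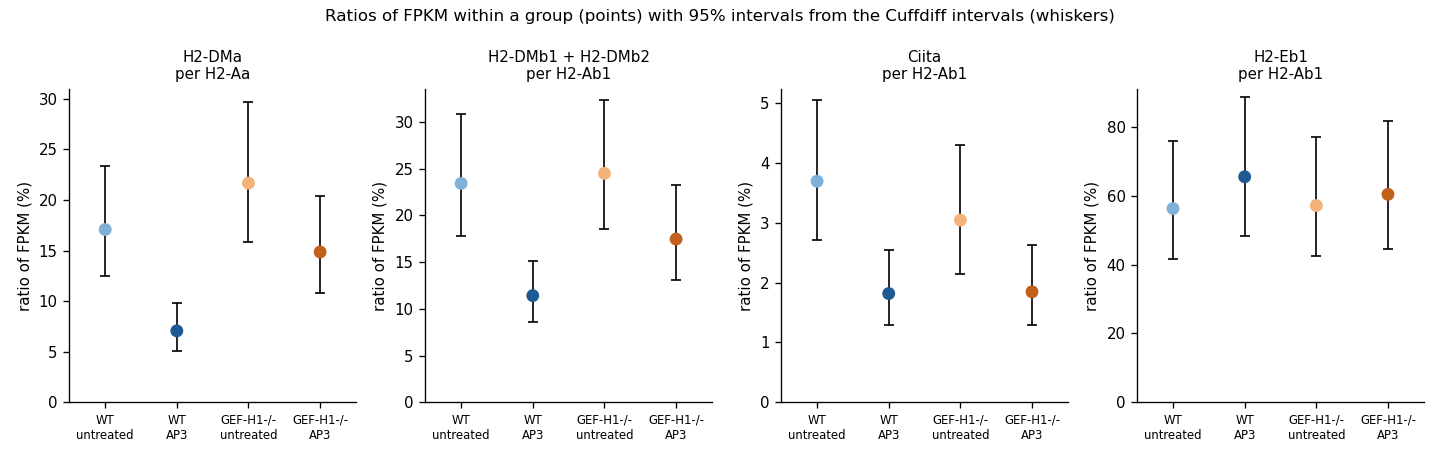
Ratios of FPKM between genes of the same group, in percent (y axis), in the 4 groups (x axis), with 95% intervals propagated from the Cuffdiff intervals (whiskers). *H2-DMa* per *H2-Aa* is lowest in AP3-treated WT DCs at 7.06%, *Ciita* per *H2-Ab1* is near 1.8% in both treated groups, and *H2-Eb1* per *H2-Ab1* stays between 56.3% and 65.5%.

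Without the drug, GEF-H1-/- cells were set against WT DCs to describe how the genotypes differed. Markers of other cells also differed between these cultures, as given below, and their part was not tested. Of the 10 genes, 8 had lower values in GEF-H1-/- DCs, with a median log2 difference of -0.29, against -0.01 over all genes. By fold 0 genes were called lower, against 0.614% of all genes. By intervals 1 gene (*H2-Oa*) was lower and 0 were higher, against 1.88% and 2.86%. The propagated interval of the difference excluded 0 for *H2-Oa*, *Ciita* and *H2-DMb2*. *H2-Oa* was at 27.6 FPKM (22.1 to 33.1) in untreated WT, 26.0 (20.9 to 31.2) in AP3-treated WT, 17.2 (13.4 to 21.1) in untreated GEF-H1-/- and 14.8 (11.5 to 18.1) in AP3-treated GEF-H1-/- DCs. Both GEF-H1-/- groups lay below both WT groups, apart from the WT group of the same treatment, and the drug left the intervals overlapping within each genotype. The log2 difference between genotypes was -0.65 (-1.06 to -0.24) in untreated and -0.77 (-1.18 to -0.37) in treated DCs. B cell markers also summed to less in untreated GEF-H1-/- DCs (9.66 FPKM) than in untreated WT DCs (16.8 FPKM), and their part in this difference was not tested. The chains were lower by 0.28 to 0.32 on the log2 scale in untreated GEF-H1-/- DCs, *H2-DMb2* differed by -0.48 (-0.95 to -0.01) and *Ciita* by -0.57 (-1.03 to -0.11), all with Cuffdiff intervals that overlapped.

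In treated DCs, *H2-DMa* was the gene with intervals apart in the upward direction, with a log2 difference of 0.68 (0.22 to 1.13) between GEF-H1-/- and WT DCs, and *H2-Oa* the gene apart in the downward direction. That is 1 of 10 genes higher and 1 of 10 lower, against 7.02% and 6.73% of all genes, and 0 of 10 passed the fold threshold in either direction, against 4.06%. *H2-DMb1* (0.35) and *H2-DMb2* (0.30) had positive differences, and *H2-Aa* (-0.39), *H2-Eb1* (-0.38), *H2-Ab1* (-0.27) and *Cd74* (-0.57) negative ones. The interval of *Cd74* (-1.12 to -0.01) ended just below 0. The same untreated libraries enter several of these comparisons, which are therefore not independent of each other.

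Along chromosome 17 the genes that were lower with AP3 were neighbours. Measured from the lower coordinate of *H2-Oa*, *H2-DMa* lies at 27.3 kb, *H2-DMb2* at 50.9 kb and *H2-DMb1* at 60.8 kb, while *H2-Ab1*, *H2-Aa* and *H2-Eb1* lie at 171, 190 and 214 kb. Between *H2-Oa* and *H2-Eb2*, 14 genes passed the filter, 7 of them among the 10 described here. Of the 7 others, 0 were called lower by fold in WT DCs, against 1.28% of all genes. Against 7.58% of all genes, 2 had lower values with intervals apart. These were *Psmb9* (169 to 99.0 FPKM, log2 change -0.76), a subunit of the immunoproteasome, and *Tap1* (81.8 to 55.4 FPKM, -0.56), a subunit of the peptide transporter of the class I pathway, which stand at 89.7 and 95.2 kb. They were named after their values were seen. *Brd2*, which overlaps the upstream end of *H2-DMa* on the opposite strand, had a log2 change of 0.38, the highest of the 7.

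**Figure D4:**
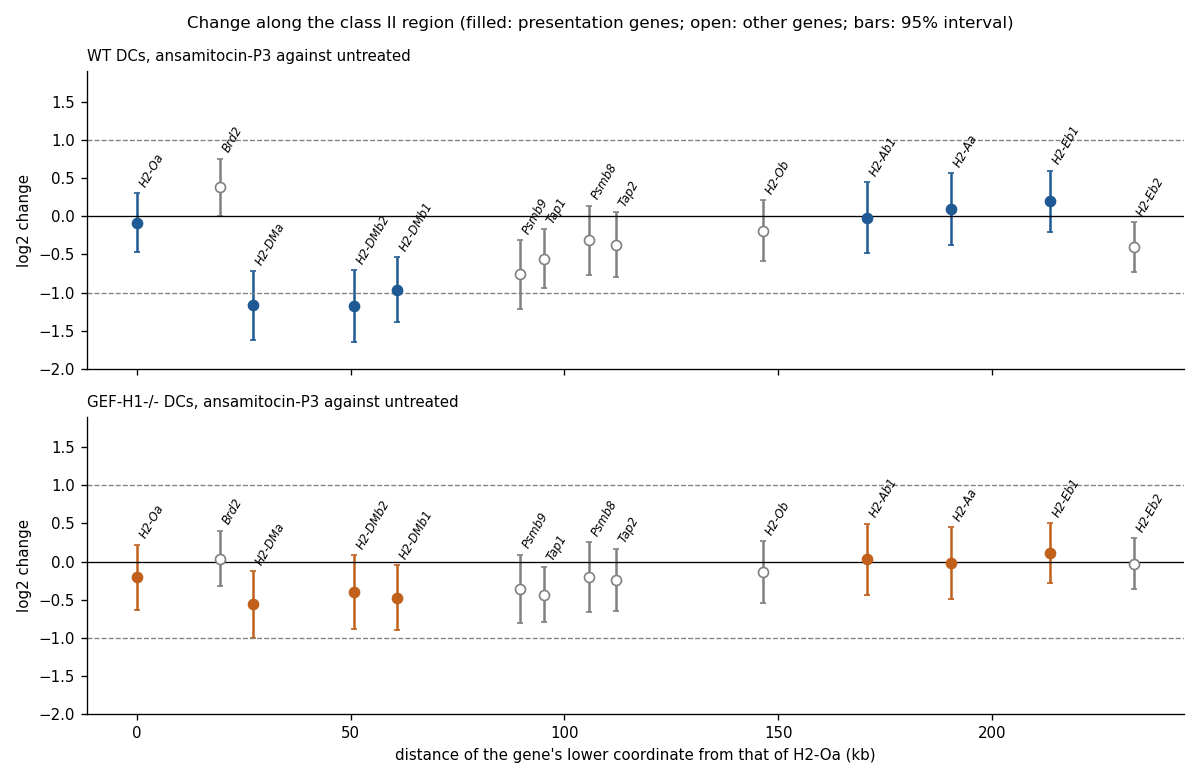
Log2 change with ansamitocin-P3 (y axis) of 14 genes against the distance of each gene's lower coordinate from that of *H2-Oa* in kb (x axis), in WT (upper) and GEF-H1-/- DCs (lower), with 95% intervals propagated from the Cuffdiff intervals and dashed lines at -1 and 1. Filled points are genes described here and open points other genes of the region. In WT the H2-DM genes at 27.3 to 60.8 kb lie lowest, and the chains beyond 170.8 kb lie near 0.

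Among the other genes of the locus, those of the class II family were weakly expressed. *H2-Ob*, the beta chain of H2-DO, was at 3.31 FPKM in untreated and 2.78 in AP3-treated WT DCs, and *H2-Eb2* at 1.86 and 1.16, with overlapping intervals. *H2-Oa*, the partner of *H2-Ob*, was at 27.6 FPKM in untreated WT DCs. An antisense gene, *BC051537*, spans *H2-Oa* and holds 24.2% of its 35-base words, but was itself listed at no more than 0.199 FPKM in any group. *Ciita* overlaps *Dexi* on the opposite strand, which was at 13.9, 13.2, 12.6 and 9.42 FPKM in untreated WT, AP3-treated WT, untreated GEF-H1-/- and AP3-treated GEF-H1-/- DCs. The libraries kept strand, but whether Cuffdiff used it is not stated in the sources used here, and without it reads of such pairs cannot be told apart.

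Transcripts of the factors that bind class II promoters had no change with AP3 beyond their error. In WT cells the propagated 95% intervals reached 0.37 to 0.56 to either side of the log2 change and included 0. For the RFX subunits *Rfx5*, *Rfxap* and *Rfxank*, the NF-Y subunits *Nfya*, *Nfyb* and *Nfyc*, and *Creb1*, 0 of 7 genes were higher or lower by fold or by intervals in any comparison, and their log2 changes with AP3 lay between -0.22 and 0.11 in WT cells and between -0.17 and 0.11 in GEF-H1-/- DCs. By intervals, 9.19% of all genes were higher and 7.58% lower with AP3 in WT, and 0 of 7 does not set this list apart from these shares. *Rfx5* was at 6.34 FPKM in untreated and 5.31 in AP3-treated WT DCs, *Nfya* at 41.1 and 36.8, and *Creb1* at 12.2 and 10.5.

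Of 16 genes known to act upstream of *Ciita*, 15 passed the filter and *Il10* (at most 0.0395 FPKM) did not. In WT DCs 5 of 15 were higher and 1 was lower with intervals apart, against 9.19% and 7.58% of all genes. Their median log2 change was 0.42. *Irf8*, a transcription factor of the DC lineage, was at 18.8 FPKM in untreated and 96.8 in AP3-treated WT DCs, and at 24.8 and 103 in GEF-H1-/- DCs. It was the single gene of the list past the fold threshold, at a log2 change of 2.31 (WT) and 2.01 (GEF-H1-/-), and was higher with intervals apart in both genotypes. The others higher in WT were *Irf4* (0.77), a partner of PU.1 in DCs, *Il4ra* (0.74), the receptor chain for the IL-4 in the medium, *Il10ra* (0.72), a chain of the IL-10 receptor, and *Prdm1* (0.50), which encodes Blimp-1, a repressor of *Ciita* in plasma cells. *Prdm1* was low, at 2.96 FPKM in untreated and 4.58 in AP3-treated WT DCs. *Socs1*, an inhibitor of interferon signaling, was the gene listed as lower (179 to 156 FPKM), but its treated value lay outside its own interval (93.4 to 149). The interferon gamma pathway genes *Irf1* (-0.21), *Ifngr1* (0.07), *Ifngr2* (0.42), *Jak1* (0.28) and *Jak2* (0.37), as well as *Stat6* (0.44), *Bcl6* (0.20) and *Sfpi1* (0.48), which encodes PU.1, had overlapping intervals in WT DCs. In GEF-H1-/- DCs 1 of 15 was higher and 0 were lower with intervals apart, against 2.75% and 0.956% of all genes, with a median of 0.18.

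Among 10 genes of endolysosomal processing, *Ctsl*, the gene of a cathepsin that trims the invariant chain in thymic epithelium, was the 1 gene higher with intervals apart in WT DCs (47.3 to 72.6 FPKM, log2 change 0.61), against 9.19% of all genes. It was also higher in untreated GEF-H1-/- than in untreated WT DCs (73.4 FPKM, 0.63), as was *Ctsb* (146 and 221 FPKM, 0.59). *Cst3*, which encodes the cathepsin inhibitor cystatin C, reached 5412 FPKM in untreated and 8178 in AP3-treated WT against 3874 and 4359.8 in GEF-H1-/- DCs, and in treated cells was lower in GEF-H1-/- DCs with intervals apart (-0.91). *Ifi30*, the gene of the thiol reductase GILT, had a log2 change of -0.46 (-0.909 to -0.005) in WT cells and -0.24 (-0.676 to 0.201) in GEF-H1-/- DCs, with overlapping Cuffdiff intervals in both. The log2 changes of *Lgmn* (0.25), *Ctsc* (-0.06), *Ctsd* (0.42), *Ctsh* (-0.27), *Ctsz* (0.37) and *Sppl2a* (0.32) in WT DCs also came with overlapping intervals. The median over the 10 genes was 0.28 in WT cells and 0.07 in GEF-H1-/- DCs, and 0 of 10 passed the fold threshold.

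Of 11 genes of class II turnover and transport, *March1*, the ubiquitin ligase that sends class II molecules of immature DCs to degradation, followed the direction of *Ciita*. It was at 8.96 FPKM in untreated WT, 4.23 in AP3-treated WT, 8.83 in untreated GEF-H1-/- and 5.30 in AP3-treated GEF-H1-/- DCs, and was lower with intervals apart in both genotypes (log2 change -0.93 and -0.64). Its relative *March8* was level, at 13.3 to 14.1 FPKM in all groups. *Cd83*, which opposes MARCH1, was at 125 FPKM in untreated WT, 154 in AP3-treated WT, 88.8 in untreated GEF-H1-/- and 75.6 in AP3-treated GEF-H1-/- DCs. Treated GEF-H1-/- DCs were lowest, apart from AP3-treated WT DCs with a log2 difference of -1.02, the one value of the list past the fold threshold between genotypes.

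*Cd9*, a tetraspanin found with class II molecules, was at 400 FPKM in untreated and 835 in AP3-treated WT DCs (log2 change 1.06, intervals apart) and at 422 and 533 in GEF-H1-/- DCs (0.33, overlapping). The other tetraspanins *Cd63* (0.45), *Cd81* (0.62) and *Cd82* (0.25), and the transport genes *Rab7* (0.54), *Arl8b* (-0.37), *Ap1m1* (0.18) and *Ap2m1* (0.31), had overlapping intervals with AP3 in WT. Between genotypes, *Cd81* was higher in untreated GEF-H1-/- DCs (26.9 and 46.2 FPKM, 0.76) and *Cd82* lower in AP3-treated GEF-H1-/- DCs (69.2 and 44.9 FPKM, -0.61), each with intervals apart. The median of the 11 genes was 0.30 in WT cells and 0.01 in GEF-H1-/- DCs.

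**Figure D5:**
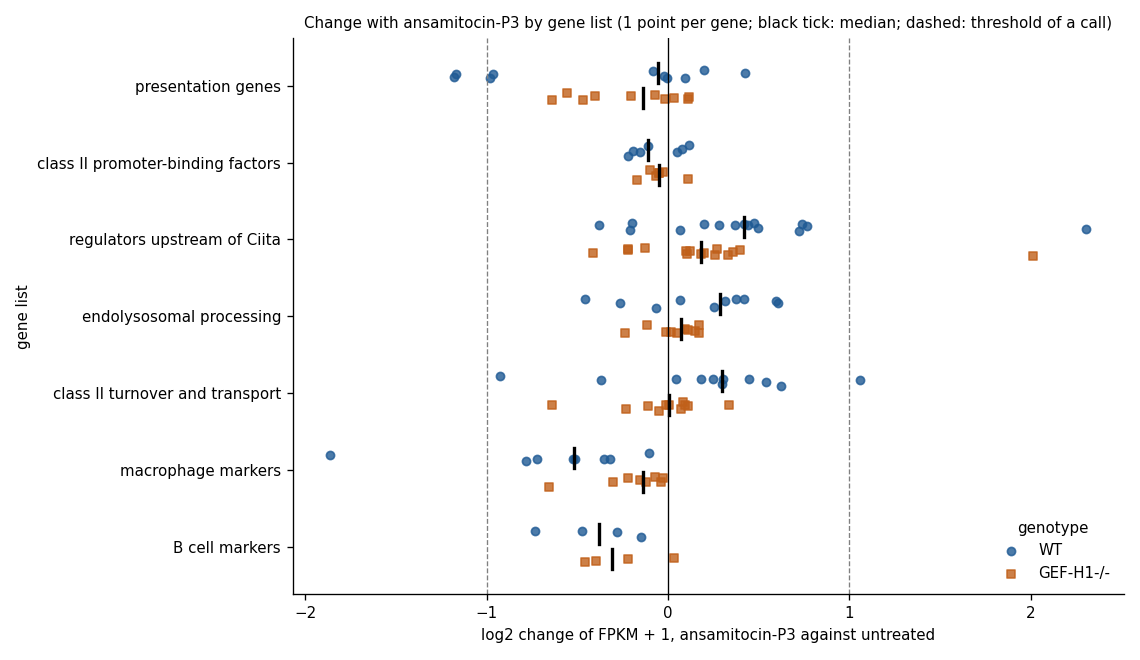
Log2 change with ansamitocin-P3 (x axis) by gene list (y axis), with 1 point per gene that passed the filter, in WT (blue circles) and GEF-H1-/- DCs (orange squares). Black ticks are medians and dashed lines mark -1 and 1. Genes of the promoter-binding factors stay within -0.22 to 0.11, *Irf8* is the point beyond 2, and all 8 macrophage markers lie below 0 in both genotypes.

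RNA of other cells was present in these unsorted cultures. The DC marker *Itgax* (CD11c) was at 102 to 175 FPKM and *Ccr7* at 234 to 602 FPKM, whereas *Xcr1* and *Clec9a*, markers of cross-presenting DCs, were under 1 FPKM in every group. *Batf3*, of the same list of DC markers, was not low. It was at 106 FPKM in untreated WT, 72.45 in AP3-treated WT, 141 in untreated GEF-H1-/- and 121 in AP3-treated GEF-H1-/- DCs. Of 8 DC markers that passed the filter, 2 were higher (*Ccr7*, *Sirpa*) and 2 lower (*Flt3*, *Cd209a*) with AP3 in WT with intervals apart, against 9.19% and 7.58% of all genes. All 8 macrophage markers had negative log2 changes in WT DCs (median -0.52) and in GEF-H1-/- DCs (median -0.14). In WT 2 of them had intervals apart (*Mertk*, -1.86, and *Emr1*, -0.78), against 7.58% of all genes lower. In GEF-H1-/- DCs the summed level of the macrophage markers was 399 FPKM without and 366 FPKM with the drug. In treated cells 4 of 8 were higher in GEF-H1-/- DCs with intervals apart, against 7.02% of all genes, the C1q genes by 1.76 to 3.10 on the log2 scale. The C1q genes were also higher in untreated GEF-H1-/- than in untreated WT DCs, by 1.34 to 2.53. They were the 3 of 8 with intervals apart there, against 2.86% of all genes.

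B cells express class II genes, *H2-Oa* and *Ciita*, and their markers also differed between the groups. The 7 B cell markers found in the table summed to 16.8 FPKM in untreated WT, 10.5 in AP3-treated WT, 9.66 in untreated GEF-H1-/- and 6.83 in AP3-treated GEF-H1-/- DCs. *Cd79b* ran from 9.76 FPKM in untreated WT over 5.48 and 5.05 to 3.40 in AP3-treated GEF-H1-/- DCs, while *Pax5* (at most 0.400 FPKM) and *Cr2* (at most 0.0112) were near 0. *Ciita* had the same highest and lowest group. Its values in between were 11.3 FPKM in AP3-treated WT and 15.4 in untreated GEF-H1-/- DCs. The order of these groups was within error for both genes, as their Cuffdiff intervals overlapped. They were 8.55 to 14.2 and 11.4 to 19.5 for *Ciita*, and 4.07 to 6.88 and 3.70 to 6.36 for *Cd79b*. *H2-Oa* was lower in GEF-H1-/- cells and nearly level with AP3 in WT (27.6 and 26.0 FPKM). *H2-Ob* was at 3.31 FPKM in untreated WT and 3.40 in untreated GEF-H1-/- DCs, with overlapping intervals. What part B cells had in these values was not tested.

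Neutrophil markers summed to 32422 and 38285 FPKM in the WT groups against 21832 and 22240 in the GEF-H1-/- groups. The sum rests on *S100a8* (19401, 23110, 10856 and 11199 FPKM in untreated WT, AP3-treated WT, untreated GEF-H1-/- and AP3-treated GEF-H1-/- DCs), whose value lay outside its own Cuffdiff interval in all 4 groups, and on *S100a9* (10678, 12394, 10004 and 10130 FPKM), which differed by -0.09 on the log2 scale between the untreated groups. The list did not run in a single direction. Of 7 markers that passed the filter, 4 were lower in untreated GEF-H1-/- than in untreated WT DCs with intervals apart (*S100a8*, *Ngp*, *Camp* and *Ltf*) and 1 was higher (*Mpo*, 26.4 and 63.1 FPKM, log2 difference 1.23), against 1.88% and 2.86% of all genes. *Elane* was at 20.7 and 45.9 FPKM with overlapping intervals. Basophil and mast cell markers summed to 191 and 197 FPKM in the WT groups against 349 and 334 in the GEF-H1-/- groups, with higher values of all 6 in GEF-H1-/- DCs. T cell markers summed to 23.2, 26.2, 16.4 and 16.3 FPKM in untreated WT, AP3-treated WT, untreated GEF-H1-/- and AP3-treated GEF-H1-/- DCs. Plasmacytoid DC markers summed to 124, 115, 98.5 and 93.0 FPKM in the same order. *Bst2* made up most of the latter sum, while *Siglech* was at or under 0.101 FPKM. The part of any of these cells in the values of the 10 genes was not tested.

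The genes whose pattern over the 4 groups was most like that of *H2-Ab1*, by the Euclidean distance of centred log2(FPKM + 1) among 7725 genes with at least 5 FPKM in every group, were *Mfsd1*, *Wdr81*, *Tmsb10*, *Mrpl14* and *Marf1*, at distances of 0.02 to 0.04 against a median of 0.40 over all others. For *Ciita* they were *Igflr1* (14.1, 7.17, 9.45 and 5.92 FPKM in untreated WT, AP3-treated WT, untreated GEF-H1-/- and AP3-treated GEF-H1-/- DCs), *Amica1*, *Clec4a1*, *Etv5* and *Gimap1*, at distances of 0.08 to 0.15 against a median of 0.97. None of the genes described here was among the nearest of either gene. With 4 values a gene, likeness of pattern is a description only.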

How the data were processed

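RNA-seq was performed by the authors on 8 libraries of BMDCs, 2 per group, made with a strand-specific kit for polyadenylated RNA and read as paired ends of 35 bases. The deposited values are FPKM per gene and group, which the authors computed with Cuffdiff (1.05) on mm10 from both libraries of a group. The aligner and annotation are not given in the sources used here. Columns were matched to groups by name, those of WT by elimination, and 0 were left unused. The depth per library is unknown, because FPKM keeps no number of fragments.

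Of 23356 genes, 107 without a status of OK were left out, and 11397 had at least 1 FPKM in at least 1 group. Changes are log2 ratios of FPKM + 1, which understate changes of low genes. As the values are pooled, the planned limma test was not run and there is no p-value. The 95% interval of a change combines the Cuffdiff intervals by the delta method, with groups taken as independent. For 165 genes an FPKM lay outside its own interval, for 0 of the 10 genes. The genes and lists were chosen with earlier results of these data known. Named were *Arhgef2*, the 10 genes, the pathway lists, up to 4 abundant genes per marker list and the 5 genes nearest in pattern to *H2-Ab1* and *Ciita*, and any others after their values were seen. 1 gene of the pathway lists is not reported here by name, *Ighm*, *Trac* and *Ly6g* were not analysed here, and *Spi1* and *Adgre1* were matched by older symbols. Sequences and positions are from RefSeq (GRCm38.p6), overlaps and shared words from GENCODE on the same build. The calls (Python 3.11.15, numpy 2.4.6) were tested on simulated data, and other pseudocounts, filters, scalings and call rules were tried.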

Additional observations from a re-analysis of the deposited data

How the results depend on the processing

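Over other pseudocounts, filters and scalings, each of the 300 recomputed changes of the 10 genes stayed within the 95% interval of the reported value. Part of this was fixed beforehand. The filters tried drop none of the 10 genes and leave their values unchanged. The factors of the median-ratio scaling were 0.995 to 1.005, so it could hardly move them. Rescaling the groups to an equal sum of FPKM mattered most, since it moved the median of all genes from 0.00 to -0.24 in the WT comparison and from -0.03 to 0.20 between the treated groups. Under it 4 of the 10 genes, not 2, were called with AP3 in WT, *H2-DMb2* passed the threshold of the genotype difference (1.01; 1 gene called, not 0), and 8 changes of at most 0.23 turned sign, among them *H2-Aa* and *H2-Eb1* in WT (-0.19 and -0.08). It also changed the split of all calls from 417 higher and 146 lower to 260 and 423 in WT, from 228 and 235 to 424 and 126 between treated groups, and from 61 and 155 to 118 and 95 for the genotype difference.

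The counts of all genes called moved with the pseudocount. At 0.1 and 5 FPKM they were 956 and 318 in WT (563 as reported), 212 and 77 in GEF-H1-/- (123), 372 and 101 between untreated groups (214), 801 and 206 between treated groups (463), and 387 and 123 for the genotype difference (216). With intervals apart at any fold they were 1911, 422, 540 and 1567 in the first 4 comparisons, with 4, 0, 1 and 2 of the 10 genes called. With fold and intervals together, 70 genes were called in GEF-H1-/- DCs. The WT change ranged from -1.45 to -1.13 for *H2-DMa*, -1.24 to -0.91 for *H2-DMb1*, -1.45 to -1.06 for *H2-DMb2* and -1.24 to -0.80 for *Ciita*.

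No paired analysis was possible because each group has 1 pooled value, and for the same reason leaving out 1 library was not run. At a median width of 45.2% of the FPKM, differences of the size seen for the chains were not detectable.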
